A study of Mus musculus with 16 samples.

Results

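The 10 genes described here encode heat shock proteins of the cytosol and of the mitochondria. They are Hspa1a, Hspa1b, Hspa8, Dnajb1, Dnaja1, Hsph1 and Hsp90aa1 for the cytosol, and Hspa9, Hspd1 and Hspe1 for the mitochondria. They were taken by name, and every probe set annotated to 1 of them alone was used, which gave 28 probe sets of 45037 for 10 genes of 18193. Livers came from 16 male mice, 3 to 5 months old, and each RNA was run on its own Affymetrix mouse genome 430 2.0 array. Wild-type mice of the 129S1/SvImJ substrain and PPARα-null mice (knockout) of the 129S4/SvJae substrain ate control food, or the same food with 0.1% w/w of the synthetic PPARα agonist Wy14643, for 5 days, in groups of 4. The PPARα-null mice lack the receptor in all tissues, and since each genotype had its own substrain, genotype and substrain cannot be told apart.

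Heat shock proteins are chaperones that bind unfolded or aggregating protein and return it to its fold. In the cytosol Hsp70 proteins work with Hsp40 (DnaJ) partners, which bring the substrate, with Hsp110, which exchanges the nucleotide, and with Hsp90, which takes over late folding steps. In the mitochondrion a separate Hsp70 pulls imported chains through the membrane, and the Hsp60 barrel with its Hsp10 lid folds them. Many of these genes are switched on together by heat shock factors, which bind repeats of inverted GAA units before the start site, whereas PPARα, the fatty acid sensor of the hepatocyte, is known for its targets in fat oxidation.

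The Ppara transcript separated the genotypes on Wy14643 in all 3 of its probe sets (log2 differences of at least 1.15, all called at the limits given below). Array medians lay between 2.15 and 2.24 on the log2 scale, and 24 of the 28 heat shock probe sets had a mean above 4. Arrays of the same group correlated with r from 0.987 to 0.995. The hepatocyte markers Alb, Apoa1, Ttr, Tat, Cps1 and Pck1 were all bright, and their summed intensity was 45275 to 51665 in wild type on Wy14643 and 54860 to 58042 in the other 12 arrays.

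The stretches before the start sites are shown first, as a description. Heat shock element letters were found there for Hspa1a, Hspa1b, Hspd1 and Hspe1. They were also found for Dnaja1 and Hsph1, whose wild-type responses to Wy14643 did not reach the limits given below. The part of these letters in any response was not tested. Sequences were from RefSeq on build GRCm38.p6, where windows of 250 bases before the annotated start were found for 7 of the 10 members, in 12 windows. Capitals mark the units of each matched element. For Hspa1b, the stress-inducible Hsp70, the whole window is chr17:34959239-34959488 on the minus strand, and the others are stretches of 30 bases. These are chr17:34972242-34972271 (minus) for Hspa1a, chr4:40722333-40722362 (plus) for Dnaja1, chr5:149636351-149636380 (minus) for Hsph1, and chr1:55088053-55088082 for Hspd1 (minus) and Hspe1 (plus).
Hspa1b: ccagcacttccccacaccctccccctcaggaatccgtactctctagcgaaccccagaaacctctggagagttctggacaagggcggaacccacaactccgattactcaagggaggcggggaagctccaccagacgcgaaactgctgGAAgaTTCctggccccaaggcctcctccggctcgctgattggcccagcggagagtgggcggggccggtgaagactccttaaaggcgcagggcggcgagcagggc
Hspa1a: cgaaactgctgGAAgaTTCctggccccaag
Dnaja1: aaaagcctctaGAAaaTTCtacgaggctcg
Hsph1: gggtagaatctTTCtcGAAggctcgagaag
Hspd1: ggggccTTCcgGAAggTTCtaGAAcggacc
Hspe1: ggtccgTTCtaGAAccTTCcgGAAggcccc

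Hspd1 and Hspe1 are neighbours that run away from each other. The first annotated start of Hspd1 and the start of Hspe1 lie 216 bases apart on opposite strands, and the printed stretch lies between them, so that it is read once on each strand. It held 4 units in a row, at -144 to -127 from this Hspd1 start and at -89 to -72 from the Hspe1 start. A second Hspd1 start lies 95 bases beyond the Hspe1 start, and no match was found in its window. Hspa1a and Hspa1b are a tandem pair with start sites 12918 bases apart. Their windows differed at 3 of 250 bases (98.8% identity), as T44C, C47T and G249T, with the Hspa1b base first, the position counted from 1 at the first printed base and the Hspa1a base last. None of these lies in the element, which began at -104 and ended at -97 in both genes. The match lay at -124 to -117 for Dnaja1, and at -54 to -47 and -33 to -26 from the pair of annotated starts of Hsph1. Neither of the 2 Dnajb1 windows held a match.

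Searched on both strands, the 2-unit element (GAANNTTC or TTCNNGAA) was found for 6 of these 7 members and in 12.8% of all 32851 windows, which is 14.5% of 27025 genes. The 3-unit element (GAANNTTCNNGAA, in which 2-unit matches overlap) was found for 2 members, Hspd1 and Hspe1, and in 0.466% of windows. The spaced repeat AGGTCANAGGTCA, the textbook paired recognition sites of PPARα with its partner RXR, was found for 0 of the 7 members and in 0.0335% of windows. A match of letters is not a bound site. No match says nothing of sites that depart from these letters or lie elsewhere. With the spaced repeat in so few windows, 0 of 7 does not set the members apart from other genes.

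**Figure D1:**
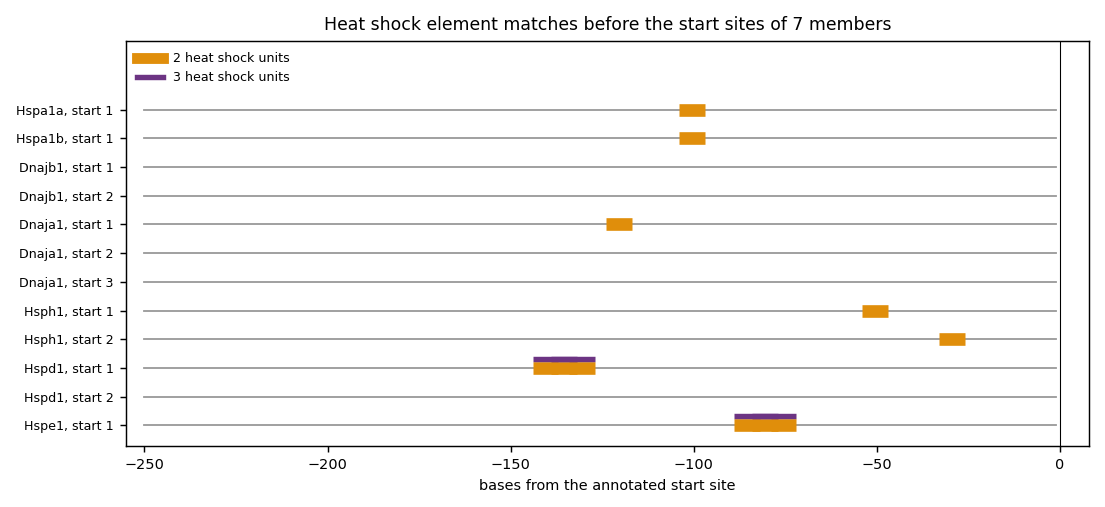
Heat shock element matches in the 12 windows of 7 member genes, plotted by distance in bases from the annotated start site (0); orange bars are 2-unit matches and purple bars 3-unit matches. Hspd1 and Hspe1 show 3-unit matches, and both Dnajb1 windows, 2 of the Dnaja1 windows and the second Hspd1 window are empty.

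The question asked of the arrays was how these genes responded to Wy14643 and whether the response needed PPARα. In wild-type liver Hspa1b, the 3 informative probe sets of Hsp90aa1, Hspd1 and Hspe1 rose with Wy14643, as did the single dim probe set of Hspa1a. Hspa1b rose 7.62- to 10.3-fold, and Hsp90aa1, Hspd1 and Hspe1 rose 1.61- to 2.02-fold. No member was called lower in any comparison. In knockout liver no member was called in either direction. A probe set was called at an adjusted p below 0.01 and a fold above 1.5 in limma. In wild type 10 of 28 probe sets were called higher with Wy14643, against 5.84% of all probe sets, and 0 lower, against 4.82%. They came from 5 of 10 genes, where a gene counts if any of its probe sets was called. The share of all genes by this rule was not counted. The median log2 difference was 0.38 over the 28 and -0.03 over all probe sets. The arrays of both wild-type groups did not overlap, with Wy14643 higher, for 20 of the 28, where 10.9% of all probe sets did so.

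On Wy14643, wild type was called higher than knockout for 13 of 28 probe sets, against 6.17% of all probe sets, and 0 lower, against 4.91%. The called probe sets came from 8 of 10 genes, a count that cannot be compared, as the share of all genes is again missing. For Hspa8, Hsph1 and Dnajb1 it was 1 probe set each. Its call was lost when some single arrays were left out, as given below. The arrays of these 2 groups did not overlap for 17 of the 28, with wild type higher in each, where 10.7% of all probe sets did so. The median was 0.63 against -0.04 over all. This comparison shares the 4 wild-type Wy14643 arrays with the previous one, so the 2 counts are not independent. In knockout mice on Wy14643 against control food 0 of 28 were called (limma, with 0.0133% of all probe sets called higher and 0 lower). Of the 28, 5 had an unadjusted limma p below 0.05, where the share of all probe sets was not counted. The median was -0.08 over the 28 against 0.007 over all. It was -0.27 over the 20 cytosolic probe sets, with 16 below 0 and 4 above. Over the 8 mitochondrial ones it was -0.008, with 4 below 0 and 4 above. The knockout arrays did not overlap for 3, with 2 Dnaja1 probe sets higher on Wy14643 (2.89% of all probe sets) and 1 Hsp90aa1 probe set lower (2.49%). Wild type and knockout on control food differed in 0 of 28 (limma; 0.262% of all were called higher and 0.0910% lower), with 0 below an unadjusted p of 0.05. Their arrays did not overlap for 1, Hspa9 1418504_at, with wild type lower by 0.08 on the log2 scale (3.24% of all probe sets). The interaction, which is the wild-type response minus the knockout response, was called above 0 for 10 of 28, against 4.10% of all probe sets, and below 0 for 0, against 2.94%.

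**Figure D2:**
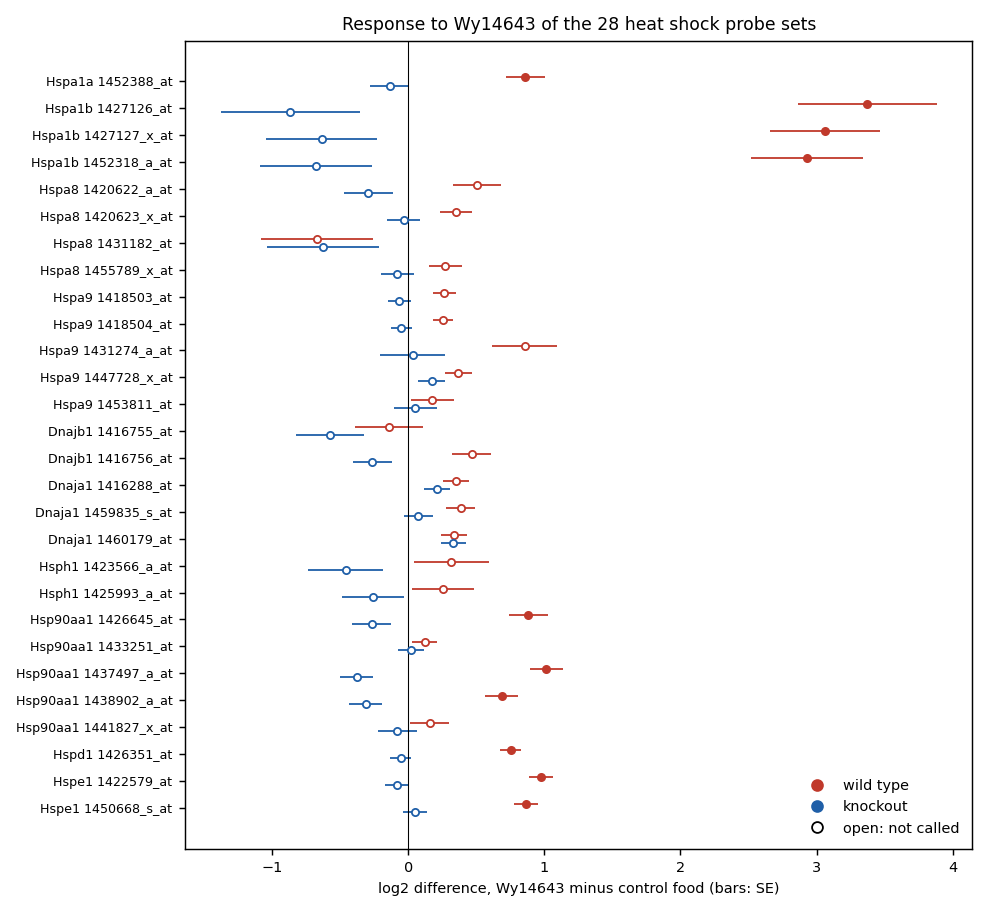
Log2 difference between Wy14643 and control food for each of the 28 probe sets in wild type (red) and knockout (blue), with bars of 1 SE; filled points were called. All 10 filled points are wild-type increases, and the Hspa1b probe sets lie farthest to the right at 2.93 to 3.37.

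Hspa1b encodes the Hsp70 that is made on stress, and it gave the largest differences among the members. In probe set 1427126_at the log2 values of replicates 1 to 4 were 6.82, 5.78, 6.52 and 5.78 in wild type on control food, and 9.79, 10.17, 9.80 and 8.62 on Wy14643. In knockout mice they were 6.16, 7.11, 5.71 and 6.29 on control food, and 5.67, 5.17, 7.10 and 3.87 on Wy14643. All 4 wild-type arrays on Wy14643 lay above all 12 others, and the knockout groups overlapped. The wild-type response was 3.37 ± 0.51 (SE, n = 4 per group; 10.3-fold, limma adjusted p = 8.42e-05), and the knockout difference was -0.86 with a 95% interval of -1.94 to 0.21 (limma adjusted p = 0.655). The interaction was 4.24 ± 0.72 (limma adjusted p = 0.000537).

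The other Hspa1b probe sets read the same way. Probe set 1452318_a_at had means of 7.37 ± 0.39 (SD, n = 4) and 10.30 ± 0.83 in wild type on control food and on Wy14643, and of 7.39 ± 0.42 and 6.71 ± 0.91 in knockout. Its wild-type response was 2.93 and that of 1427127_x_at 3.06, with interactions of 3.61 and 3.70. In each of the 3 probe sets wild-type replicate 4 on Wy14643 was the lowest of its group, at 8.62 to 9.10, and knockout replicate 3 on Wy14643 the highest of its group, at 7.10 to 8.01. Hspa1a and Hspa1b are so alike that cross-hybridization between their probes cannot be told apart from their own signal.

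Hspa1a, the twin of Hspa1b, was read by 1452388_at alone, and this probe set was dim. Its values were 2.11, 1.81, 1.92 and 1.64 in wild type on control food, 2.72, 2.69, 3.04 and 2.47 on Wy14643, and 1.47 to 2.08 over the 8 knockout arrays. The wild-type Wy14643 arrays did not overlap with the others. Because the other group means lay below the highest array median, its rise is given as at least 1.41-fold (limma adjusted p = 0.00021), and after adding 16 to each intensity the log2 difference was 0.21 and no longer called.

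Hspa8 is the Hsp70 made in all cells at all times. In 1420622_a_at the values were 10.54, 10.58, 10.77 and 10.41 in wild type on control food, 10.86, 11.37, 11.07 and 11.01 on Wy14643, 10.33, 10.67, 10.68 and 11.08 in knockout on control food, and 10.22, 10.27, 10.95 and 10.16 on Wy14643. The wild-type groups did not overlap, but knockout replicate 3 on Wy14643 lay inside the range of wild type on Wy14643. Wild type on Wy14643 was above knockout on Wy14643 by 0.68 ± 0.18 (limma adjusted p = 0.0093), a call that was kept in only 2 of 8 refits without 1 array. The wild-type response was 0.51 (1.42-fold, limma adjusted p = 0.0542). The brighter 1420623_x_at and 1455789_x_at gave wild-type differences of 0.35 and 0.27, neither called, with the wild-type arrays apart in both. Probe set 1431182_at had differences of -0.67 in wild type and -0.63 in knockout, neither called, with SDs up to 0.97.

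The Hsp40 partners gave smaller values. Dnajb1, the stress-inducible Hsp40, had values of 7.50, 7.58, 7.85 and 7.65 in wild type on Wy14643 in 1416756_at and 6.997, 7.02, 7.26 and 6.72 in knockout on Wy14643, without overlap. The difference was 0.64 ± 0.14 (limma adjusted p = 0.00294), which lost its call without wild-type replicate 3 (0.57) or knockout replicate 4 on Wy14643 (0.55). Against control food the wild-type difference was 0.47 (1.38-fold, limma adjusted p = 0.0268), not called. The second Dnajb1 probe set, 1416755_at, did not show this, with a wild-type difference of -0.14 and a 95% interval of -0.67 to 0.39.

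Dnaja1, a constitutive Hsp40, was read by 3 probe sets. In 1460179_at the values were 9.78, 9.67, 9.79 and 9.56 in wild type on control food, 9.87, 10.03, 10.12 and 10.12 on Wy14643, 9.60, 9.73, 9.53 and 9.55 in knockout on control food, and 9.85, 10.09, 9.87 and 9.92 on Wy14643. Wy14643 arrays lay above control arrays in both genotypes. The differences were 0.34 in wild type (limma adjusted p = 0.0136) and 0.33 in knockout (limma adjusted p = 0.232), and the interaction was 0.01 with a 95% interval of -0.27 to 0.28. In 1416288_at and 1459835_s_at the wild-type differences were 0.35 and 0.39 the knockout differences 0.21 and 0.08, and the interactions 0.14 and 0.31. The probe sets thus gave like differences in wild type and unlike ones in knockout. None of these was called, and all lay under the 1.5-fold limit.

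Hsph1, the Hsp110 nucleotide exchange factor, varied widely within groups. Probe set 1423566_a_at ranged from 6.58 to 7.67 in wild type on Wy14643, from 6.54 to 7.21 on control food, from 5.97 to 7.26 in knockout on control food and from 5.76 to 6.69 on Wy14643. Wild type exceeded knockout on Wy14643 by 1.05 ± 0.28 (limma adjusted p = 0.00976), although these groups overlapped and the call was kept in 2 of 8 refits without 1 array. The wild-type response was 0.32 with a 95% interval of -0.26 to 0.90. The second probe set, 1425993_a_at, gave 0.70 between genotypes (limma adjusted p = 0.0369) and 0.26 for the wild-type response, neither called.

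Hsp90aa1, the stress-inducible Hsp90 of the cytosol, rose in wild type in all 3 of its bright probe sets. In 1437497_a_at the values were 8.72, 8.37, 8.39 and 8.36 in wild type on control food, 9.41, 9.37, 9.36 and 9.75 on Wy14643, 8.32, 8.75, 8.44 and 8.30 in knockout on control food, and 8.04, 8.11, 8.15 and 7.99 on Wy14643. Wild type on Wy14643 lay above all other arrays, and knockout on Wy14643 lay below all other arrays. The wild-type response was 1.01 ± 0.12 (2.02-fold, limma adjusted p = 5.66e-06). The knockout difference was -0.38 with a 95% interval of -0.63 to -0.12, but its limma adjusted p of 0.303 did not pass. The interaction was 1.39 ± 0.17 (limma adjusted p = 1.77e-05).

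For 1426645_at and 1438902_a_at the wild-type responses of Hsp90aa1 were 0.88 and 0.69, and the interactions 1.15 and 1.001. In all 3 probe sets wild-type replicate 4 on Wy14643 was the highest array, at 10.93, 9.75 and 11.51, in contrast to its low place for Hspa1b. Without it the response of 1438902_a_at was 0.58 and not called. The remaining Hsp90aa1 probe sets, 1433251_at and 1441827_x_at, were dim, with all arrays between 1.34 and 2.56, and were not called in any comparison.

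**Figure D3:**
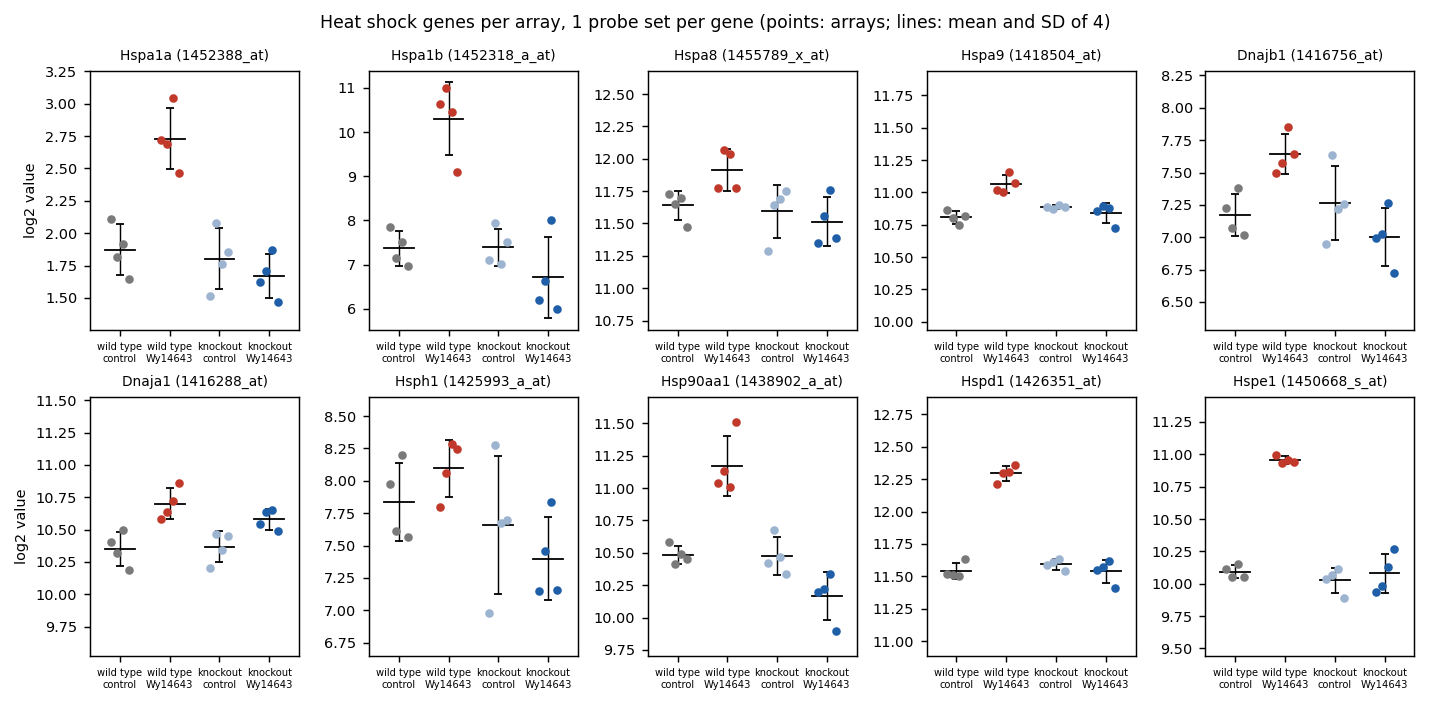
Log2 value of each array (points) in the 4 groups for the brightest probe set of each of the 10 genes, with the mean (line) and SD (bar) of 4 mice; vertical scales differ between panels. Wild type on Wy14643 was called higher than wild type on control food for Hspa1a, Hspa1b, Hsp90aa1, Hspd1 and Hspe1, and not for the other 5.

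Among the mitochondrial members, the barrel and its lid rose together with little spread. For Hspd1 (Hsp60) the values of 1426351_at were 11.52, 11.51, 11.50 and 11.63 in wild type on control food, 12.21, 12.30, 12.31 and 12.36 on Wy14643, 11.59, 11.61, 11.63 and 11.54 in knockout on control food, and 11.55, 11.57, 11.62 and 11.41 on Wy14643. Only the wild-type Wy14643 group stood apart. The wild-type response was 0.75 ± 0.08 (1.69-fold, limma adjusted p = 8.89e-07), the knockout difference -0.06 with a 95% interval of -0.22 to 0.11, and the interaction 0.81 ± 0.11 (limma adjusted p = 4.78e-05).

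Hspe1 (Hsp10), which shares the printed stretch with Hspd1, had values in 1422579_at of 7.96, 7.82, 7.98 and 7.80 in wild type on control food, 8.88, 8.86, 8.78 and 8.94 on Wy14643, 7.91, 8.001, 8.07 and 7.80 in knockout on control food, and 7.93, 7.82, 7.75 and 7.95 on Wy14643. The wild-type response was 0.98 ± 0.09 (1.97-fold, limma adjusted p = 1.88e-07) and the interaction 1.06 ± 0.12 (limma adjusted p = 1.07e-05). Probe set 1450668_s_at gave 0.86 ± 0.09 in wild type and 0.05 in knockout. The SD within groups of both Hspe1 probe sets was at most 0.15.

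Hspa9, the mitochondrial Hsp70, was not called in any of its 5 probe sets at the settings used throughout. The brightest, 1418504_at, had values of 10.86, 10.81, 10.74 and 10.81 in wild type on control food and 11.02, 11.01, 11.16 and 11.08 on Wy14643, and 10.72 to 10.91 over the 8 knockout arrays. The wild-type Wy14643 arrays lay above the others, but the difference of 0.26 ± 0.07 (1.19-fold, limma adjusted p = 0.0205) was under the limits. Probe set 1418503_at gave the same 0.26. The larger difference of 0.86 in 1431274_a_at (limma adjusted p = 0.0142) was taken against a control group whose replicate 2, at 5.06, lay below its other arrays at 6.13 to 6.34. This probe set was called when only those with a mean above 4 were tested, without replicate 4 of wild type on control food (0.995) or without replicate 3 of wild type on Wy14643 (0.98). Probe set 1447728_x_at gave 0.37 in wild type (limma adjusted p = 0.0137) and 0.39 between genotypes on Wy14643 (limma adjusted p = 0.00885), both under the fold limit. Probe set 1453811_at was dim, with all arrays between 1.74 and 2.49.

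Within each of the 4 groups, most cytosolic probe sets with a mean above 4 were highest or lowest in the same mouse. Over the 17 cytosolic probe sets with a mean above 4, replicate 3 of knockout on Wy14643 was the highest of its group in 15, at 0.52 above the group mean on average (log2), and replicate 4 the lowest in 12, at -0.38. In wild type on control food replicate 4 was lowest in 13 of the 17, and in knockout on control food replicate 2 was highest in 13. Wild type on Wy14643 had no such common order at the top, where replicates 2, 3 and 4 were highest in 6, 6 and 5 probe sets. There replicate 1 was lowest in 10 and replicate 4 in 5, the latter including all 3 of Hspa1b. Over the 7 mitochondrial probe sets with a mean above 4 the array means lay between -0.10 and 0.10 of the group mean, although single probe sets varied more, with an SD of 0.58 for Hspa9 1431274_a_at in wild type on control food. Probe sets of 1 gene are not independent, and no test was made of this pattern.

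**Figure D4:**
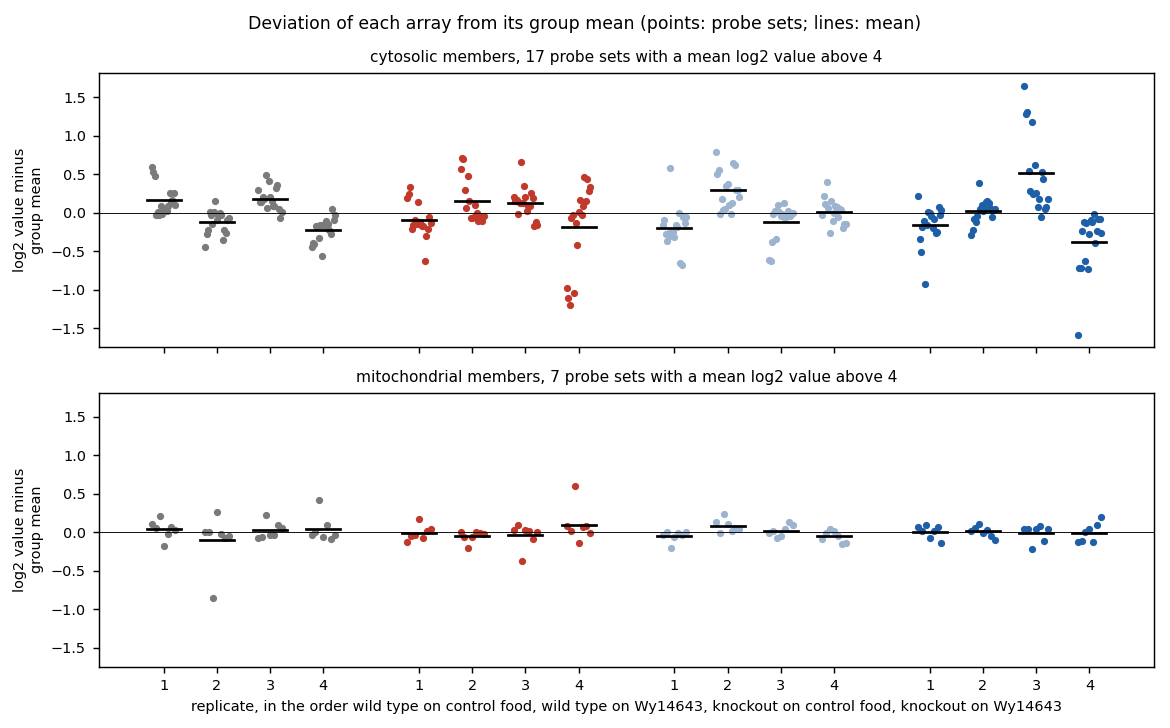
Difference between each array and its group mean (log2) for 17 cytosolic (top) and 7 mitochondrial (bottom) member probe sets; each point is a probe set and each line the mean over them. Knockout on Wy14643 has the widest range of array means among cytosolic members, from -0.38 to 0.52.

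The remaining chaperone genes were read by lists, with the brightest probe set for each gene. By this count 7.72% of all genes were called higher and 6.74% lower in the wild-type response, and the median of all genes was -0.03. No list had a gene called in the knockout response, where 0.0275% of all genes were called higher and 0 lower. For the wild-type response 3 of the 7 cytosolic members and 2 of the 3 mitochondrial members were called higher, with list medians of 0.47 and 0.75.

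Among other cytosolic Hsp70, Hsp110 and Hsp90 genes 2 of 7 rose, Hspa4l (an Hsp110, 1.89 ± 0.26) and Hspa14 (0.71). Of small heat shock proteins, which hold unfolded protein without ATP, 2 of 9 rose, Hspb1 by 3.92 ± 0.30 (limma adjusted p = 2.16e-08) and Hspb6 by 2.24, with a list median of 0.09. Of 16 other DnaJ genes of the cytosol 3 rose, Dnajc9 (1.38), Dnajb12 (0.81, which sits in the ER membrane) and Dnaja2 (0.66). Of 22 co-chaperones of Hsp70 and Hsp90, 3 rose, Fkbp5 (2.17), Bag2 (1.86) and Bag4 (1.02), and Cdc37l1 fell by 0.64. Fkbp5 is also a textbook target of the glucocorticoid receptor. Of 14 subunits of the cytosolic chaperonin and prefoldin, Cct3 (0.67) and Cct6a (0.61) rose. None of 5 measured heat shock factors and regulators was called, and 1 of these 5 had a mean above 4. Hsf1 and Hsp90ab1 were not read, as no single-gene probe set was annotated to them.

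On the mitochondrial side, 9 of 23 other chaperones and proteases rose and 1 fell, with a median of 0.36. Grpel2, the nucleotide exchange factor of the mitochondrial Hsp70, rose by 2.24 ± 0.19, Dnajc15 by 1.04 and the prohibitin Phb2 by 0.94, while Clpx, the unfoldase of the Clp protease, fell by 1.51 ± 0.26. The 9 that rose also held Lonp2 (0.67), a protease of the peroxisome, not the mitochondrion, and Grpel1, Clpb, Afg3l1, Afg3l2 and Spg7 (0.61 to 0.80). Of 19 genes of mitochondrial protein import 8 rose and 0 fell, with a median of 0.52, among them Timm8a1 (1.07), Chchd4 (1.01), Tomm40 (1.001) and Timm22 (0.98). The chaperones of the ER went the other way. Of 17, 0 rose and 8 fell, with a median of -0.53, led by Sdf2l1 (-2.37), Hyou1 (-1.68), Dnajb11 (-1.45) and Pdia6 (-1.45). In the knockout response 0 of the 17 were called, but their median was also below 0, at -0.26 against 0.009 over all genes.

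The same lists were counted for the interaction, where 5.38% of all genes were called above 0 and 4.62% below. Small heat shock proteins had 2 of 9 above 0, other mitochondrial chaperones and proteases 5 of 23, mitochondrial import 6 of 19, the cytosolic chaperonin and prefoldin 3 of 14, co-chaperones 3 of 22, other cytosolic Hsp70, Hsp110 and Hsp90 genes 2 of 7, other DnaJ genes of the cytosol 1 of 16 and heat shock factors 0 of 5, each with 0 below. ER chaperones had 0 of 17 above and 4 below.

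**Figure D5:**
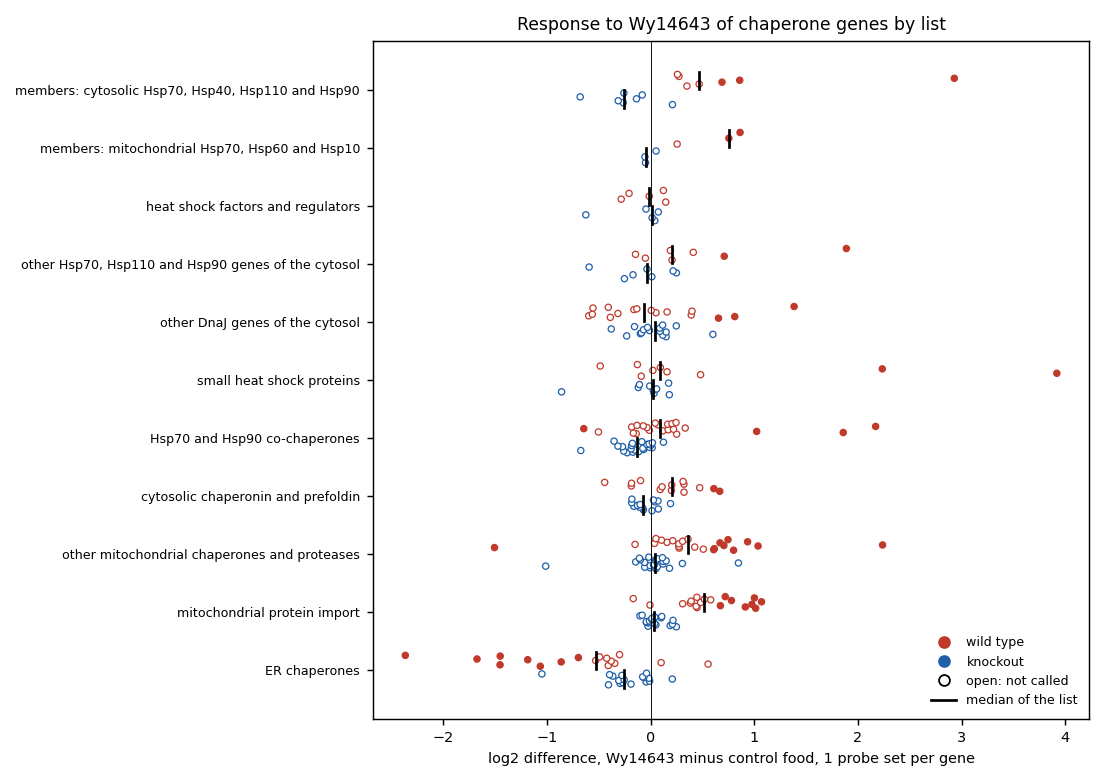
Log2 difference between Wy14643 and control food for each gene of 11 chaperone lists in wild type (red) and knockout (blue), with 1 probe set per gene; filled points were called and black ticks are list medians. Filled points lie to the right of 0 for the mitochondrial lists apart from Clpx, and to the left for the ER chaperones.

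Other measures also set wild type on Wy14643 apart. The summed intensity of 9 Kupffer cell markers was 610 to 758 there and 1109 to 1597 in the other 12 arrays, and 8 of the 9 were called lower in the wild-type response. The sum of 8 stellate cell markers was 1424 to 1451 against 2211 to 2968, with 4 called lower. That of 8 sinusoidal endothelial markers was 742 to 881 against 922 to 1124, with 1 called lower and 1, Lyve1, higher. For 2 erythroid markers it was 86.8 to 122 against 490 to 763, with 1 called lower. Only 1 of these 2 had a mean log2 value above 4. Sums of cholangiocyte, neutrophil, and T and B cell markers were at most 54.1 in all arrays. In bulk liver, fewer cells of a type and less RNA per cell cannot be told apart. Immediate early genes, which respond within minutes to stress and handling, had summed intensities of 753 to 784 in wild type on Wy14643, inside the 635 to 1211 of the other arrays. Of 14 of them 4 rose, Gadd45b (4.86), Myc (2.40), Jun (1.81) and Btg2, and Ier2 fell by 2.51. The part of any of these in the response of the heat shock genes was not tested.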

How the data were processed

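Each array measured liver RNA of 1 mouse. The authors deposited 1 intensity per probe set, made with GCRMA 2.20 per the submitters' processing notes, which adjusts background, normalizes quantiles and summarizes probes. The deposited values are on a linear scale, as their array medians of 4.42 to 4.72 and highest values of up to 22364 show, so log2 was taken with no offset. This scaling hides any shift common to the whole liver transcriptome, and the background adjustment sets the dimmest values. Of 45101 probe sets, 64 controls were left out. The platform annotation gave 1 gene for 34945, several for 932 and none for 9160, and 34741 matched a RefSeq gene by identifier.

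For 5 comparisons, limma 3.58.1 (R 4.3.3) estimated a mean for each of the 4 groups from all 16 arrays and all 45037 probe sets. P-values are two-sided, with Benjamini-Hochberg adjustment over the whole array within a comparison. Replicates were separate mice, and 0 pairs of arrays were identical. All member probe sets are reported. From every other list up to 4 called genes with the largest change per comparison are named. Btg2, Lonp2, Grpel1, Clpb, Afg3l1, Afg3l2 and Spg7 were added after their values were seen. For Hspa1b and Hspe1 the 5 genes with the most similar pattern are named. Members and lists were chosen with earlier results of these data known. The fit was tested on simulated data. Alternatives included mean log2 above 4 only, 2 scalings, an offset of 16, array weights, trend and robust moderation, only the groups compared, a replicate block, an adjusted p below 0.05 with no fold limit, 1 probe set per gene, and leaving out each array. Array number limits the precision. No promoter sequence was used for Hspa8, Hsp90aa1 or Hspa9.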

Additional observations from a re-analysis of the deposited data

Results flagged for a closer look

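In 7 of 112 groups of 4 arrays 1 array lay far from the rest by Dixon's criterion, where chance gives about 1 in 20. For Hspa8 1420622_a_at it was replicate 3 of knockout on Wy14643 at 10.95, with the next array at 10.27. For Hspa9 1431274_a_at it was replicate 2 of wild type on control food at 5.06, with the next at 6.13. For Hsp90aa1 1437497_a_at these were replicate 1 of wild type on control food at 8.72 and replicate 4 of wild type on Wy14643 at 9.75, with the next at 8.39 and 9.41. For Hspd1 it was replicate 4 of wild type on control food at 11.63, with the next at 11.52. The remaining cases were dim probe sets of Hsp90aa1 in wild type on control food, 1433251_at in replicate 3 at 1.36 and 1441827_x_at in replicate 1 at 2.16.

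The responses of wild type and knockout differed, by the limma interaction, for 10 probe sets. The difference was 4.24, 3.70 and 3.61 for Hspa1b (adjusted p = 0.000537, 0.000214 and 0.000318), and 0.996 for Hspa1a (adjusted p = 0.00246). The Hspa1a value is not a measured size, since 3 of its 4 group means lay below the highest array median, and with an offset of 16 it was 0.23 and not called. For Hsp90aa1 it was 1.15, 1.39 and 1.001 (adjusted p = 0.000663, 1.77e-05 and 0.000544). It was 0.81 for Hspd1 (adjusted p = 4.78e-05), and 1.06 and 0.81 for Hspe1 (adjusted p = 1.07e-05 and 0.000171).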

How the results depend on the processing

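Of 2416 values of single member probe sets under the alternatives, 2381 kept their side of the limits, 28 lost a call, 7 gained one and 0 called values changed direction. Calls were lost for Hspa8, Hsph1 and Dnajb1 between genotypes on Wy14643, for Hspa1a with an offset of 16, and for Hsp90aa1 1438902_a_at without 1 array. The calls gained were 3 for the wild-type response of Hspa9 1431274_a_at, 3 for the interaction of Dnajb1 1416756_at and 1 for that of Hspa8 1420622_a_at, the last without knockout replicate 3 on Wy14643 (0.98). With 1 probe set per gene, wild type was called higher than knockout on Wy14643 for 6. The share of all genes is not given for this comparison, so 6 cannot be set against it. Wy14643 was called higher than control food in wild type for 5 (7.72% of all genes). The interaction was called above 0 for 5 (5.38% of all genes). These counts are lower as fewer probe sets were counted. At an adjusted p below 0.05 with no fold limit 19 were called in the wild-type response, 18 between genotypes on Wy14643 and 12 in the interaction. In the knockout response and on control food 0 were called at this setting. The share of all probe sets at this setting was not counted, and the shares given at the stricter limits do not apply to these counts. Leaving out 1 array gave 10 to 13 calls between genotypes on Wy14643, 9 to 11 in the wild-type response, 10 to 11 in the interaction, and 0 in the knockout response and on control food. Under the 2 scalings the median shift over all probe sets was at most 0.0382 in size. The largest shift of a single member probe set was 0.14 for the interaction and 0.097 between genotypes on Wy14643, both under quantile normalization. Replicate numbers were shared between groups, but only 5 of 16 same-numbered pairs had deviations with a correlation above 0.1 (range -0.12 to 0.17), so they were not taken to pair the mice. With the replicate block 13 were called between genotypes on Wy14643, 10 in the wild-type response, 10 in the interaction and 0 in the knockout response and on control food. Replicate 4 of knockout on Wy14643 had the lowest array weight, at 0.41, and the next lowest was 0.76. With array weights 11 were called between genotypes on Wy14643, 10 in the wild-type response and 10 in the interaction. Dim probe sets, with means near the array median, limit Hspa1a and the dim sets of Hsp90aa1 and Hspa9.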

Other observations

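The genes whose pattern over the 16 arrays was most like that of Hspa1b 1427126_at, among 7573 probe sets of 1 gene with a mean above 6, were Twistnb (Pearson's r = 0.960), Thap12 (0.956), Ubp1 (0.955), Slc35a3 (0.949) and Clcn3 (0.945). In wild type the difference with Wy14643 was 0.67 for Twistnb, 0.92 for Thap12, 0.80 for Ubp1, 0.61 for Slc35a3 and 0.68 for Clcn3. For Hspe1 1422579_at they were Mdh2 (0.984), Micos10 (0.980), Tspo (0.980), Nmnat1 (0.979) and Cct3 (0.977), with wild-type differences of 1.05, 0.84, 0.87, 1.25 and 0.67. The 16 points share the separation of wild type on Wy14643 from the other arrays, and these values are a description.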
